A study of Mus musculus with 10 samples.

Results

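The genes described are 8 transcription factor genes of retinal bipolar cells, Vsx1, Bhlhe22, Bhlhe23, Lhx4, Isl1, Irx5, Irx6 and Sebox. They were chosen by name from what is known of bipolar cells, with earlier results of these data already known. They are 8 of 21631 protein-coding genes measured on chromosomes 1 to 19 and X. Each was read over a window of its gene body plus 20 kb on either side (mouse build mm10) in 8 lists of peaks from mouse retina, 4 of ATAC-seq, which finds open chromatin, and 4 of ChIP-seq against modified histones. All samples were of strain C57BL/6, with genotypes labelled wild type (control) and Casz1 cKO, a conditional knockout of the zinc finger transcription factor gene Casz1.

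For ATAC-seq, retinal explants labelled postnatal day 2 received a plasmid for GFP (control) or for GFP together with Cre recombinase (cKO), and after 2 days ex vivo 50000 viable GFP-positive cells were sorted per library, 2 libraries per genotype. For ChIP-seq, retina dissected at postnatal day 0 gave a control and a cKO library for H3K27ac, an acetylation found at active promoters and enhancers, and again a library of each genotype for H3K27me3, the methylation laid down by Polycomb repressive complex 2. The cKO tissue for ChIP-seq was cut from peripheral retina by its fluorescence, and the labels do not say where the control tissue came from, so position in the retina and genotype cannot be told apart for the histone marks. The sources used here do not give the deleted part of Casz1, the promoter that drives Cre or the number of animals pooled. The lists hold nothing that checks the loss of Casz1.

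Bipolar cells carry signals from photoreceptors to ganglion cells and are among the last neurons that the retinal progenitors make. Bipolar subtypes are set by homeodomain and basic helix-loop-helix factors, several of which also act in other retinal neurons: Isl1 is needed in ganglion cells and Bhlhe22 in amacrine cells. Genes for developmental regulators are common Polycomb targets in tissues where most cells do not use them, and a gene that only some cells use can show both H3K27ac and H3K27me3 in bulk tissue. In these lists, marks on the same chromatin and marks from different cells cannot be told apart.

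The lists hold no peak heights and no read counts, so sequencing depth is unknown and no interval can be given. The ATAC lists differed in length within each genotype, from 11.8 Mb covered in control replicate 1 and 61 Mb in control replicate 2 to 52.7 Mb in cKO replicate 1 and 20 Mb in cKO replicate 2. The peak names carry the numbers 1 and 3 for the control lists and 3 and 5 for the cKO lists. The control lists of H3K27ac and H3K27me3 covered 55.4 and 87.4 Mb, and those of cKO covered 51.6 and 84.5 Mb. As 2 libraries against 2 cannot give a two-sided exact permutation p below 0.333, and each histone mark has 1 library per genotype, no p-value is given: values are set beside those of all genes. Nothing in the labels says that the ATAC replicates came from separate animals. Among retina markers (such as Pax6 and Rax), 7 of 7 had H3K27ac in control with a median of 30.9% of the window. Vessel (4.92%), microglia (5.83%) and pigment epithelium (1.72%) markers had medians closer to the 2.98% of all genes.

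All 8 windows held more H3K27me3 than most genes, but that of the Sebox window lay over neighbouring genes. With those genes and 1 kb around them excluded, 0 bp of the mark was left at Sebox in both genotypes. The values below include the Sebox window. In control, the mark covered a median of 39.7% of the members' windows, against 1.23% over all genes, and 7 of 8 members lay in the 10% of genes with most of it (at least 21.7% of the window). The members fell between the 87.1 and the 98.7 percentile of all genes, and between 78 and 97.7 among genes of similar length (within 3-fold). Their H3K27ac ranged more widely against all genes, with a median of 5.83% against 2.98% and a range from 0.595% at Bhlhe23 to 23.2% at Irx5. The microglia markers had the same median, and 5 of 8 members lay above that of all genes.

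**Figure D1:**
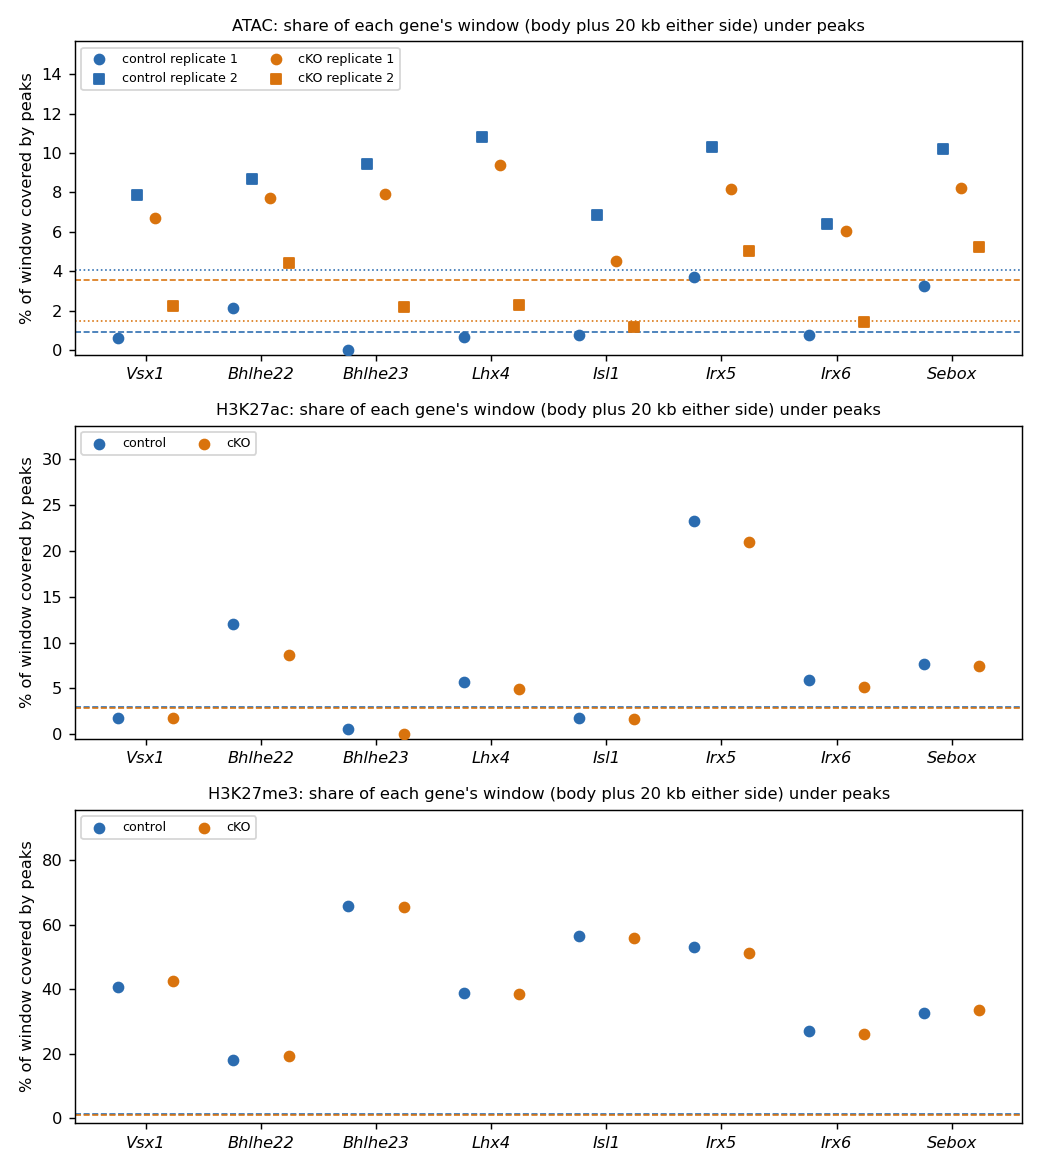
Percent of each member's window (gene body plus 20 kb either side) covered by peaks, for the ATAC, H3K27ac and H3K27me3 lists; each point is 1 gene in 1 list, and dashed and dotted lines are the medians of all protein-coding genes in each list. H3K27me3 stands above the line of all genes in all 8 windows in both genotypes (at Sebox over neighbouring genes), while the ATAC values follow the length of the list.

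The sequences 250 bases upstream of the annotated start were compared because the members' starts fell into chromatin classes: open with both marks (Isl1, Lhx4), under H3K27me3 without H3K27ac (Vsx1, Bhlhe23) and without either mark in control (Sebox). RefSeq promoter entries (GRCm38.p6, the assembly of mm10) were found for 5 of the 8; for Bhlhe22, Irx5 and Irx6 both gene ends were used. A representative of each class is printed, with capitals for the motifs found. Isl1 lies at chr13:116309689-116309938, Lhx4 at chr1:155742028-155742277 and Vsx1 at chr2:150689138-150689387 on the minus strand, and Sebox at chr11:78503263-78503512 on the plus strand.
Isl1: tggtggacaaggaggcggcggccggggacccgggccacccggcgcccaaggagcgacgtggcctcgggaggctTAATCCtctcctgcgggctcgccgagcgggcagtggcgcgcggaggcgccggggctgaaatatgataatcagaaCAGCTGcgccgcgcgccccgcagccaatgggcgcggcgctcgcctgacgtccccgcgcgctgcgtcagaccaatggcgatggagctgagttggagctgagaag
Lhx4: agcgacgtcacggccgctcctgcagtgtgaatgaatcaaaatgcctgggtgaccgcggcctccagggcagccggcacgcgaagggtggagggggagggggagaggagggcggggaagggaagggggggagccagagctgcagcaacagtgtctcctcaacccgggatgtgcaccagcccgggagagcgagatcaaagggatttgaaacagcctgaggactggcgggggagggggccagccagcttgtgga
Vsx1: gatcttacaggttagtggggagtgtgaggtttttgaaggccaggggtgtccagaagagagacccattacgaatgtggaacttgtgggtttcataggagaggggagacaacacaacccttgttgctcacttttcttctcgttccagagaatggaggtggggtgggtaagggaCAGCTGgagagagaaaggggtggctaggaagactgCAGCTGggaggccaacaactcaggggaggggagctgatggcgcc
Sebox: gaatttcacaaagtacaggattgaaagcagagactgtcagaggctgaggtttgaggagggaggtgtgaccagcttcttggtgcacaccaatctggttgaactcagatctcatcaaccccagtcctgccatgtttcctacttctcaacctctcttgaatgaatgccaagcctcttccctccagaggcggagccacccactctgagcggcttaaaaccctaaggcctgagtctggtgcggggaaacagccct
These promoters differed in CpG content. Isl1 had 33 CpG dinucleotides and 71.2% GC, Lhx4 had 14 and 66%, and Bhlhe23 had 13 and 59.2%. Vsx1 had 3 with 54.4% GC and Sebox 3 with 52.4%, against medians of 10 and 55.6% over 17274 promoters. H3K27me3 covered all 250 bases at Vsx1, Bhlhe23, Lhx4 and Isl1 in both genotypes and none at Sebox, so the CpG-poor Vsx1 promoter carried it and the equally CpG-poor Sebox promoter did not.

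Of 6 motifs searched on both strands in these 250 bases, the CAGCTG E box, a core for basic helix-loop-helix factors, was found at Vsx1 (starting 79 and 44 bases before the gene start) and at Isl1 (103 bases before). It occurs in 11.8% of all promoters. The TAATCC core known for Crx and Otx factors was found at Isl1 (177 bases before the start) and occurs in 5.89%. The remaining motifs were not found in the 5 windows: the homeodomain core TAATTA (4.38% of promoters), the E boxes CAGATG (12.4%) and CATATG (2.8%), and the Iroquois core ACATGT (3.71%). The matches did not overlap, and a match is a run of letters, not a binding site.

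Isl1 encodes the LIM-homeodomain factor needed for ON bipolar cells and also for ganglion and cholinergic amacrine cells. The gene (chr13:116298270-116309688) lay whole inside an H3K27me3 peak of 28.2 kb in control (chr13:116289613-116317862) and of 27.9 kb in cKO. H3K27me3 covered 29027 bp of its window in control and 28778 bp in cKO (56.5% and 56%). H3K27ac covered 892 bp in control and 857 bp in cKO, all of it inside H3K27me3, and only 432 bp were the same bases in both genotypes. Within 1 kb of the start, 602 and 610 bp were acetylated.
The ATAC peaks of Isl1 covered 390 and 3523 bp in control and 2312 and 599 bp in cKO, and every one of these bases lay within the control H3K27me3 peaks. The region at its start (chr13:116309349-116310449) was called in all 4 lists. Of the other 5 regions, 3 were called in both of the longer lists (control replicate 2, cKO replicate 1) and 2 in control replicate 2 alone, and none in a shorter list.

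Lhx4, a LIM-homeodomain factor of cone bipolar cells and photoreceptors, has the longest gene of the set (chr1:155698031-155751726). H3K27me3 covered 36407 bp in control and 36082 bp in cKO. In control this was mainly a peak of 31.2 kb, and in cKO one of 35.2 kb that joined it with the next. The start at position 155742027, which lies inside the gene's full span, was covered by both marks over all 2001 bases within 1 kb, in both genotypes. The H3K27ac peak there was 2320 bp wide in control and 2862 bp in cKO, while 4 smaller control peaks in the gene (266, 595, 261 and 263 bp) overlapped no cKO peak. In all, H3K27ac covered 5342 bp in control and 4572 bp in cKO. Of these, 3705 and 2978 bp remained when the neighbouring gene Acbd6 and 1 kb around it were left out.
The ATAC peaks of Lhx4 covered 604 and 10093 bp in control and 8794 and 2144 bp in cKO. An ATAC region at this start (chr1:155741703-155743365) was called in all 4 lists with 389 and 1663 bp in control and 1473 and 1029 bp in cKO. It was the wider of the 2 Lhx4 regions called in all 4 lists, and both marks met it in both genotypes.

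Vsx1, a homeodomain factor of cone bipolar subtypes (chr2:150680702-150689137), had 19675 bp of H3K27me3 in control and 20632 bp in cKO (40.6% and 42.6%). A peak of 9.3 kb crossed its start in control and one of 13.5 kb in cKO. Its window held 1 H3K27ac peak, of 877 bp in control and 873 bp in cKO, which lay at the end of the neighbouring gene Acss1 and not at Vsx1. ATAC peaks in the window covered 294 and 3805 bp in control and 3235 and 1073 bp in cKO. At the Vsx1 start, they covered 0 and 964 bp within 1 kb in the control libraries and 756 and 155 bp in the cKO libraries. The region chr2:150674867-150675424, between the genes, was called in all 4 lists (165 and 558 bp in control, 516 and 142 bp in cKO) and met neither mark.

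Bhlhe23, a basic helix-loop-helix factor of rod bipolar cells (chr2:180774381-180776900), had the highest share of its window under H3K27me3, 66% in control and 65.5% in cKO (28073 and 27863 bp). It also had the least H3K27ac, a control peak of 253 bp that lay 11775 bp from the start, and none in cKO. Its ATAC peaks covered 0 and 4011 bp in control and 3368 and 930 bp in cKO. Only control replicate 2 had one within 1 kb of the start (528 bp). None of its 10 ATAC regions was called in all 4 lists.

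Bhlhe22, a basic helix-loop-helix factor of OFF cone bipolar and amacrine cells (chr3:18054325-18057514), had the least H3K27me3 of the set: 7787 bp in control and 8324 bp in cKO (18% and 19.3%). The mark lay mostly beside the gene but ran over its lower-coordinate end. It covered 1477 bp in control and 1709 bp in cKO within 1 kb of that end. A peak at chr3:18049004-18054801 crossed this end in control, and 15% of the gene body was covered, against 31.5% in cKO. H3K27ac covered 95.5% of the body in control and 80.3% in cKO. An ATAC region across the lower-coordinate end (chr3:18053940-18055901) was called in all 4 lists, with 791 and 1889 bp in control and 1910 and 1385 bp in cKO.

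Irx5 and Irx6 are Iroquois homeodomain genes of cone bipolar subtypes and lie 313 kb apart on chromosome 8. Irx5 (chr8:92357796-92361456) had the most H3K27ac of the set, 10122 bp in control and 9104 bp in cKO, together with 23213 and 22334 bp of H3K27me3. The acetylated peak over the gene was 6291 bp wide in control and 6285 bp in cKO. A second control peak of 3108 bp corresponded in cKO to pieces of 1585, 667 and 202 bp. An ATAC region before the lower-coordinate end (chr8:92355603-92356614) was called in all 4 lists, with 782 and 1005 bp in control and 998 and 954 bp in cKO. The 4 lists gave it similar widths.
Irx6 (chr8:92674289-92680956) had 12683 and 12275 bp of H3K27me3, which took up 99.6% of its body in control and 97.5% in cKO, and 2778 and 2382 bp of H3K27ac. Its acetylated peak at the lower-coordinate end was 2155 bp wide in control and 1771 bp in cKO.

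Sebox, a homeobox gene also studied in the oocyte (chr11:78503513-78505081), is 1569 bp long, and 84.9% of its window lies in 5 other genes (Sarm1, Vtn, Tmem199, Poldip2 and Tnfaip1). Its window held 13604 bp of H3K27me3 in control and 13995 bp in cKO, and 3178 and 3102 bp of H3K27ac. No base of either mark lay on the gene body, and none was left when the neighbours and 1 kb around them were excluded. Of its ATAC bases, 0 and 192 bp in control and 0 and 0 bp in cKO were left by the same exclusion. The histone values and nearly all ATAC values of this window therefore describe the neighbours of Sebox. The H3K27me3 lay over Sarm1 and Vtn. The region called in all 4 lists at chr11:78488118-78488762 lay inside Sarm1.

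Read at gene starts, an H3K27me3 peak lay within 1 kb of the start of 4 of 5 members with a known start in control and 5 of 5 in cKO, against 24.8% and 24.4% of all gene starts. Near the Sebox start the cKO peak was the edge (219 bp) of the one over its neighbour Vtn. H3K27ac lay there at 2 of 5 (61.4% of all starts in control). Within 1 kb of the start, an ATAC peak lay at 2 and 5 of 5 in the control libraries (56.4% and 67.3% of all starts). In the cKO libraries it lay at 3 and 3 (66.3% and 60.8%). Counting either gene end for the other 3, 7 of 8 members had H3K27me3 in both genotypes, 5 of 8 H3K27ac in both, and 5 of 8 an ATAC peak in all 4 lists. Either end could count for those 3 genes, so these counts have no share over all genes beside them.

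**Figure D2:**
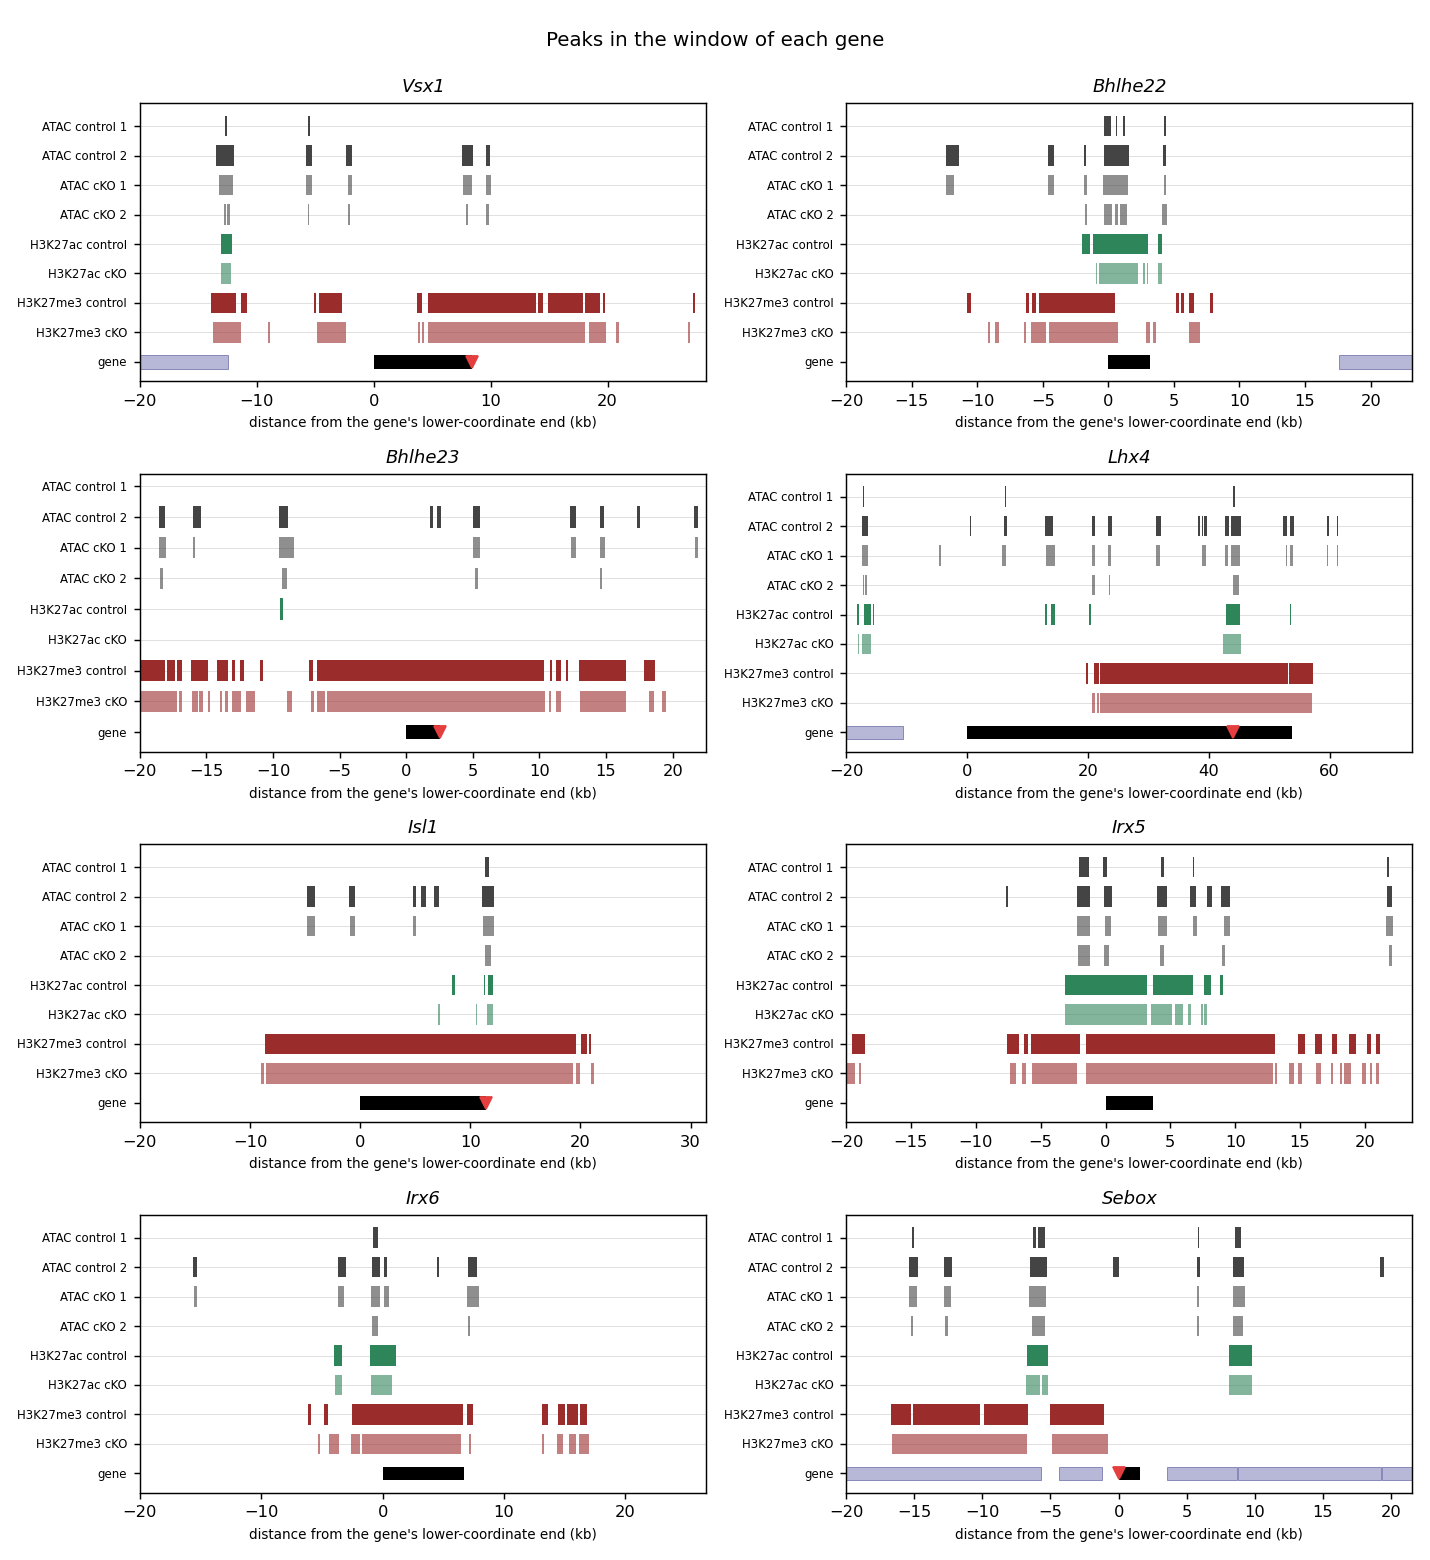
Peaks of all 8 lists over each member's window, by distance in kb from the gene's lower-coordinate end; grey bars are ATAC, green H3K27ac and red H3K27me3, paler for cKO, with black for the member gene, lilac for neighbouring protein-coding genes and a triangle for the annotated start where it is known. Isl1 and Bhlhe23 sit inside broad H3K27me3 peaks, Bhlhe22 has one over its lower-coordinate end, and the marks near Sebox lie over other genes.

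The share of acetylated bases that also lay in H3K27me3 differed between the members. Of 28616 H3K27ac bases in the 8 control windows, 18447 (64.5%) also lay in H3K27me3, and in cKO 16954 of 24599 (68.9%). Over the whole lists the shares were 7.01% and 6.89%. H3K27me3 covered a median of 39.7% of the members' windows in control, against 1.23% over all genes. The overlap was not compared with that of genes of similar H3K27me3 coverage. Irx5 contributed most, with 9637 bp in control and 8430 bp in cKO, ranks 8 and 10 of 21631 genes by percent of window. Without Irx5 the shares were 47.6% in control and 55% in cKO. In control, all of the acetylated bases of Isl1 lay in H3K27me3, 77.6% of those of Irx6, 48.4% of Lhx4, 43.5% of Bhlhe22, 1.57% of the Sebox window and 0% of Bhlhe23. Those of the Vsx1 window also all lay in H3K27me3, but at the end of Acss1.

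**Figure D3:**
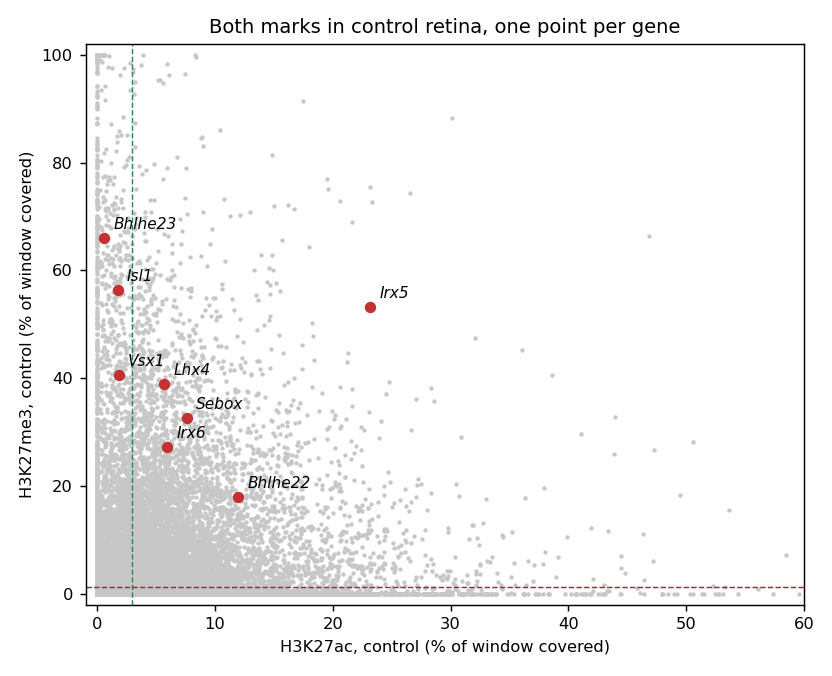
Percent of window covered by H3K27ac (x axis) and by H3K27me3 (y axis) in control for all protein-coding genes (small points) and the 8 members (named), with dashed lines at the medians of all genes. The windows of all 8 members lie above the H3K27me3 median (that of Sebox through neighbouring genes), and Irx5 is high for both marks.

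The 4 ATAC lists gave 63 merged regions in the 8 windows, of 118718 in all. H3K27me3 met 40 of the 63 in control (63.5%, against 12.9% of all regions), and H3K27ac met 22 (34.9% against 36.8%). Both marks met 15 (23.8% against 5.01%) and neither met 16 (25.4% against 55.3%). These shares were not compared with those of genes of similar H3K27me3 coverage either. Across the lists, 16 regions were called in all 4 (25.4% against 28.2%) and 19 in just the longer pair of lists (30.2% against 28%). None was called in both lists of one genotype and neither of the other; over all regions, 146 were specific in this sense to control and 325 to cKO.

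Between genotypes, the H3K27me3 in the windows of all 8 members was nearly equal in length, with that of Sebox lying over its neighbours. A difference was called where the larger value exceeded the smaller by at least 25% and at least 500 bp were covered in 1 library, and 0 of 8 members reached it, against 9.95% of genes higher and 16% lower in cKO. Among genes with at least 7500 bp, a limit chosen after the values were seen, 0.939% were higher and 3.8% lower. The ratios of cKO to control ran from 0.962 at Irx5 to 1.07 at Bhlhe22. Over 12139 genes with the mark in both genotypes, the 5th to 95th percentile was 0.567 to 1.47 (median 0.983). That range is a loose comparison: of 12306 genes tested, 4580 had at least 7500 bp, as all 8 members did. The bases covered in both genotypes made up from 64.4% (Bhlhe22) to 96% (Lhx4) of those covered in either. The cKO had fewer covered bases at 5 of 8 members, against 56.8% of genes. Divided by the length of each list, 1 of 8 (Irx5) had less, against 44.7% of genes.

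H3K27ac differed past the fold at Bhlhe22 alone, lower in cKO (5174 bp in control, 3709 bp in cKO, ratio 0.717), of 7 members with enough of the mark. Over all genes 4.64% were higher and 11.9% lower, and among genes with at least 2500 bp 2.01% and 9.13%. The control peak over the gene, 4223 bp wide (chr3:18053147-18057369), corresponded in cKO to pieces of 115, 2950, 197 and 122 bp, and a control peak of 598 bp had no counterpart. The ratio of Bhlhe22 lay just inside the 5th to 95th percentile (0.712 to 1.24) of 16144 genes with the mark in both genotypes. That range includes genes with less of the mark than Bhlhe22. There was no replicate, and the ratio of Bhlhe22 fell short of a 1.5-fold call. By number of peaks instead of bases, its ratio was 1.67, higher in cKO.
All 7 members had fewer acetylated bases in cKO, against 66.1% of genes. In the Vsx1 and Sebox windows these bases all lay in neighbouring genes and 1 kb around them. The cKO list was shorter, with a cKO to control ratio of totals of 0.932 (-0.102 on the log2 scale). Divided by list length, 4 members (Bhlhe22, Lhx4, Irx5 and Irx6) had less and 3 (Vsx1, Isl1 and Sebox) more, against 41.9% of genes with less. Past the 25% threshold, 8.29% of genes were then higher and 6.97% lower, with Bhlhe22 still the only member called. Among vessel markers, 3 of 4 tested were lower in cKO past that threshold without this division and 0 higher, against 11.9% and 4.64% of genes. Their medians were 4.92% of the window in control and 3.72% in cKO. Microglia and pigment epithelium markers each had 1 of 5 lower and 1 higher. Retina markers had 0 of 7 either way, ganglion cell markers 1 of 5 lower, and amacrine and horizontal cell markers 2 of 8 lower and 1 higher. The part of the vessel markers in the H3K27ac values was not tested.

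**Figure D4:**
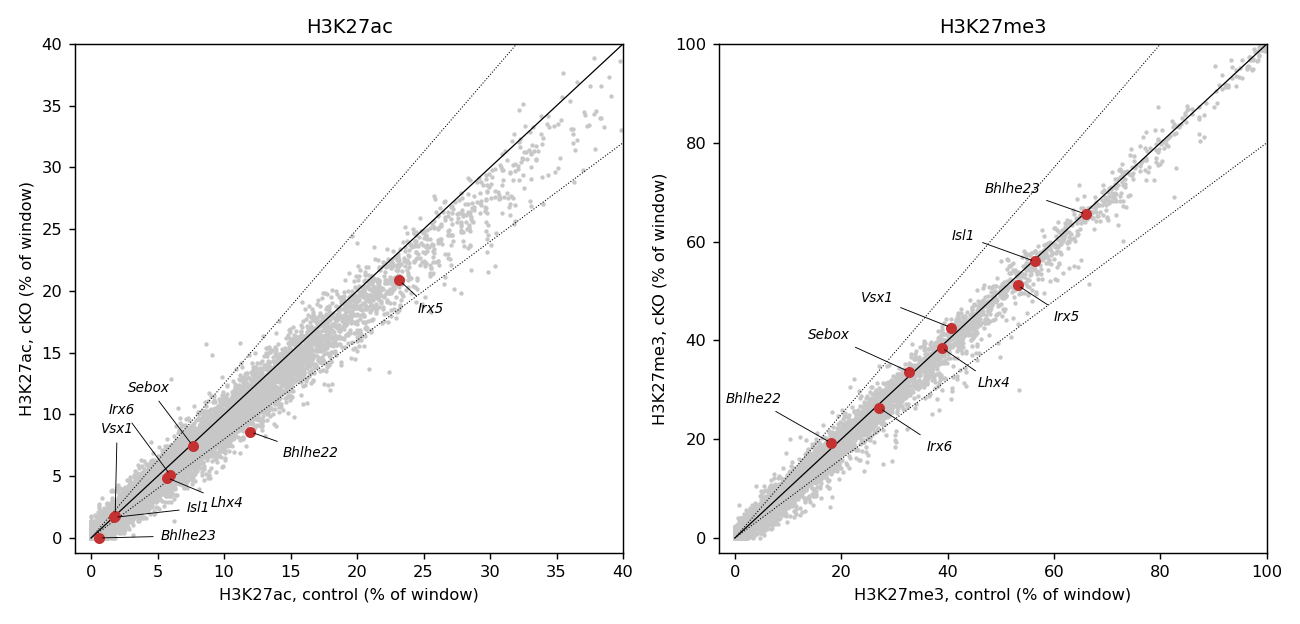
Percent of window covered in control (x axis) against cKO (y axis) for H3K27ac and H3K27me3, with all protein-coding genes as small points and the members named; the solid line is equality and the dotted lines are a 25% excess of either over the other. For H3K27me3 the members lie along the line of equality, and for H3K27ac Bhlhe22 lies below the lower dotted line.

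ATAC gave no member whose control and cKO libraries did not overlap. Over all genes 0.138% were higher and 0.0478% lower in both cKO libraries. At all 8 members the order was control replicate 1, cKO replicate 2, cKO replicate 1, control replicate 2 from lowest to highest, as at 75.8% of genes, which is the order of the list lengths. Between the shorter lists cKO was higher at all 8 (90.7% of genes), and between the longer lists control was higher at all 8 (82.9%). Bhlhe22, for example, had 917 and 3754 bp in control and 3330 and 1912 bp in cKO. Irx5 had 1617 and 4477 bp in control and 3568 and 2189 bp in cKO, Irx6 366 and 2991 bp against 2817 and 667 bp, and Sebox 1343 and 4242 bp against 3427 and 2175 bp. Nearly all bases of the Sebox window lay in neighbouring genes and 1 kb around them. Without control replicate 1 all 8 members would be called lower (82.8% of genes), and without control replicate 2 all 8 higher (90.5%).
After division by list length and pairing of the shorter with the shorter and the longer with the longer list, a choice made after the values were seen, Bhlhe22, Lhx4 and Irx6 were higher in cKO in both pairs (18.7% of genes) and Isl1, Irx5 and Sebox lower in both (19.5%). The Sebox values here are nearly all those of its neighbours. The list totals differed by a cKO to control ratio of 1.69 in the shorter and 0.863 in the longer pair (0.756 and -0.213 on the log2 scale). Without division, the covered bases of Isl1 in cKO replicate 1 were 0.656 of those in control replicate 2, the lowest such ratio of the set. The median over genes with peaks in both lists was 0.899. Between the shorter lists the undivided ratio at Isl1 was 1.54, higher in cKO, against a median of 1.48. Over all genes, division by list length alone gave 5.79% of genes higher and 3.88% lower, with no member called.

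Other gene lists of the retina were read in the same way. Of 9 other regulators of bipolar fate (such as Otx2 and Prdm8), the control medians were 21% of the window for H3K27ac and 25.8% for H3K27me3, and 5 lay in the 10% of genes with most H3K27me3. Of 20 genes of mature bipolar function (such as Grm6 and Trpm1), the medians were 3.53% and 3.08%, with 1 in that 10%. Photoreceptor regulators had 16.7% and 7.96%. Ganglion cell markers (2.54% and 58.9%, 5 of 7 in that 10%) and amacrine and horizontal cell markers (9.16% and 64.1%, 7 of 8) had higher H3K27me3 medians than the 8 members. In H3K27ac, 2 of 8 other bipolar regulators tested were lower in cKO and 0 higher, and 3 of 15 genes of mature bipolar function were lower and 1 higher, against 11.9% of all genes lower and 4.64% higher. In H3K27me3, 1 of 8 of these regulators was higher and 0 lower, against 9.95% and 16% of all genes.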

How the data were processed

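The authors deposited 8 peak lists, 1 per library, each with chromosome, start, end, name, a score column that is 0 throughout and a strand column that is + throughout. Positions are 0-based starts in mm10 and were converted to 1-based. Per the submitters' processing notes, Bowtie2, deepTools and MACS2 were used, without versions or parameters. The threshold, broad or narrow mode, removal of duplicates, Tn5 shift and whether input served as background are not stated in the labels. The 2 input samples were not analysed here. Peak calling can split broad H3K27me3 domains, so covered bases were used before numbers of peaks.

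Only peaks of chromosomes 1 to 19 and X entered (at most 0.372% of a list lay elsewhere). Overlapping peaks were merged, and covered bases were summed per window with Python 3.11.15 and NumPy 2.4.6; figures used matplotlib 3.10.9. Interval sums were checked on simulated peaks. Gene spans were read from RefSeq (GRCm38.p6), and the start was used where the promoter table gives strand, both ends otherwise. ATAC regions are unions of the 4 lists with 1 bp minimum overlap. Calls are described where first used.

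Named genes were the 8 members, genes overlapping their windows, and for each member the gene nearest in percent covered over the 8 lists (Euclidean distance, length within 3-fold). Named regions were the widest ATAC region called in all 4 lists outside 1 kb of any gene end; other regions were chosen after their values were seen. Members and gene lists were chosen with earlier results of these data known, and 1 planned entry of the lists is not reported here. Same-numbered ATAC libraries deviated from their genotype mean in opposite directions (r = -0.743 over 18840 gene windows, log scale with 100 bp added). With 2 libraries per genotype the crossed pairs give 0.743 by construction, and the list lengths run in opposite directions too. This check therefore cannot tell whether the numbers mark a block. The main calls did not use the numbers as a block. Alternatives were other windows, a minimum peak width, division by list length, equal list lengths, numbers of peaks, another fold, each ATAC library left out, and pairings.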

Additional observations from a re-analysis of the deposited data

How the results depend on the processing

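No height, read count or replicate stands behind a histone value, and what sets the lengths of the ATAC lists is unknown. ATAC calls at the 8 genes ranged from 0 to 8 when each library was left out. They were 8 lower without control replicate 1 (82.8% of all genes) and 8 higher without control replicate 2 (90.5%). There were 0 without cKO replicate 1 (0.313% of genes higher, 2.95% lower) and 0 without cKO replicate 2 (16.8% and 0.0849%). The replicate block by number gave 0 (0.165% higher, 0.0531% lower) and the crossed pairing 0 (14.4% and 2.26%). The crossed pairing with division by list length gave 6, of which 3 higher and 3 lower (18.7% and 19.5% of genes). Equal covered length gave 1 (Bhlhe23, higher in cKO, as 7.01% of genes). For H3K27ac, windows of 50 kb gave 2 members (Bhlhe22 and Bhlhe23, both lower, against 9.68% of genes lower). Numbers of peaks gave 4 (3 higher and 1 lower, against 29.6% and 17.4% of genes). A fold of 1.5 gave 0 (1.61% of genes higher and 3.59% lower). Bhlhe22 reversed by number of peaks, to 1.67, since its cKO peak is in more pieces. For H3K27me3, numbers of peaks gave 5 members (3 higher and 2 lower, against 26.5% and 31.4% of genes). Equal covered length changed the share of genes called for H3K27me3 to 14% higher and 11.4% lower, with no member called. With peaks of at least 300 bp, 7 ATAC regions instead of 16 were in all 4 lists. Other windows, minimum widths, scalings and gene end distances tried kept each count within 1.5 times. The crossed pairing, its scaled form, the exclusion of neighbouring genes and the backgrounds of genes with more of a mark were chosen after seeing the data.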

Other observations

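The protein-coding gene nearest to each member in percent of window covered over the 8 lists, among genes of similar length and with the Euclidean distance in percentage points gave a description of likeness. Bhlhe23 was nearest to Pou4f2 (2.35), a ganglion cell factor, with 66.1% of the Pou4f2 window under H3K27me3 in control. Isl1 was nearest to Tfap2c (1.95), and Irx5 to Pou3f2 (9.4), the most distant nearest gene of the set. Vsx1 was nearest to Nbl1 (1.88), Bhlhe22 to Shd (2.43), Lhx4 to Eml2 (3.33), Irx6 to Rpl13 (1.44) and Sebox to Gm46041 (1.64). The percents were not scaled, so the H3K27me3 lists, with the largest percents, can weigh most in the distance. These distances are descriptions only, and nothing about shared function follows from them.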
